A study of Mus musculus with 6 samples.

Results

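Glucose transport and upper glycolysis was read here through 10 genes in pathway order: the transporter genes Slc2a1 and Slc2a3, the hexokinase genes Hk1 and Hk2, Gpi1, the phosphofructokinase genes Pfkl, Pfkm and Pfkp, Aldoa and Tpi1. All probes other than controls that carry one of these gene names on the array were taken, which gave 16 probes on 25 spots, of 55681 probes and 34797 gene names in all. The genes were chosen with earlier results of these data known. All 16 probes were well above background on all 6 arrays, so no member was lost to the filter on dim signals, and none had to pass it through 1 group alone.

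The cells were G1E-ER-GATA-1, a mouse erythroid precursor line without its own GATA-1 that carries an estrogen receptor and GATA-1 fusion protein (ER-GATA-1), inactive until ligand is given. One group of 3 samples received Foxo3 siRNA and the other group of 3 received nontargeting siRNA, each by nucleofection at 0 h and 24 h. Both groups also received ß-estradiol, which activates it, for the last 24 h before RNA was taken at 48 h, in medium with erythropoietin and Kit ligand. The comparison asks which genes depend on Foxo3 while GATA-1 is active. It holds no cells without estradiol, and it concerns 1 cell line, for which no separate cultures are named, so each p-value covers the spread among these arrays, which may be technical.

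Cells take up glucose by facilitated diffusion through GLUT proteins. Hexokinase traps it as glucose 6-phosphate, the isomerase converts this to fructose 6-phosphate, and phosphofructokinase adds a further phosphate in the main regulated step of the pathway. Aldolase then splits the sugar and triosephosphate isomerase interconverts the products. Maturing red cells lose their mitochondria, so that the mature cell depends on glycolysis for its ATP. Several of these genes are textbook targets of the hypoxia-inducible factors.

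Signals are given as multiples of the 75th percentile of the same array ("scaled signal"), and fold changes are Foxo3 siRNA over nontargeting siRNA. Adjusted p-values are from limma over all 27038 probes that passed the filter, with a threshold of 0.05. Probes differ in how well they bind, so a difference in signal between probes is not a difference in transcript level; signals of several probes are ranked, subtracted within an array or summed only as signals. Foxo3 siRNA replicate 3 stood apart in dim signals, with 50.2% of its spots at a surrogate value against 16.7% to 29.3% elsewhere, while all 16 member probes were well above background on it. All 6 arrays shared 1 slide and 1 scan. Slide row 1 held Foxo3 siRNA replicate 1 and all 3 nontargeting arrays, and row 2 held only Foxo3 siRNA replicates 2 and 3, so values within row 1 rest on 1 Foxo3 siRNA array, assumed to vary like the others. Of 11 erythroid markers 9 had a kept probe, with Slc4a1 and Klf1 well above background on all 6 arrays. Of these, 2 rose, Tfrc by 0.61 and Rhag by 1.41, and 0 fell, where 13.1% of all gene names or features, each read by its brightest kept probe, were called higher and 12.8% lower. The dimmer Tfrc probes gave 0.36 and 0.35 and did not pass (limma adjusted p = 0.172 and 0.174). Hba-a1 (−0.45, limma adjusted p = 0.0692) and Alas2 (−0.40, limma adjusted p = 0.0552), which carry most of the signal, did not pass, and the summed scaled signal was 2582 to 3342 with Foxo3 siRNA and 3626 to 3967 with nontargeting siRNA; its part in the results was not tested. The siRNA target was read by 2 probes. The RefSeq Foxo3 probe gave 0.722, 0.408 and 0.270 in the Foxo3 siRNA samples, against 2.30, 2.42 and 2.17 in the nontargeting samples, a fall by 2.42 on the log2 scale (SE 0.337, limma adjusted p = 0.0052). The other Foxo3 probe gave 0.26 (SE 0.161, limma adjusted p = 0.243), with its 3 Foxo3 siRNA values above the 3 nontargeting values. The check of the knockdown therefore rests on 1 probe.

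In cells with Foxo3 siRNA, transcripts of most steps from glucose entry to triose phosphate were more abundant. The limma test called 11 of the 16 probes higher and 0 lower, while 12.3% of all kept probes were called higher and 13.0% lower. The called probes belonged to Slc2a1, Hk1, Hk2, Gpi1, Pfkl, Pfkm and Tpi1, that is 7 of the 10 genes, and 9 of the 11 calls were rises of at least 2-fold, a class that held 3.76% of all kept probes. The 3 Gpi1 probes, which overlap almost fully, count as 3 in each count of probes here. With the brightest probe standing for a gene, 6 of the 10 genes were called higher and 0 lower, against 13.1% and 12.8% of all gene names or features. The median log2 fold change of the 16 probes was 1.24, against −0.15 for all kept probes. The 3 Foxo3 siRNA values lay above the 3 nontargeting values for 12 member probes and below them for 0, against 21.7% and 27.5% of all kept probes, or 49.2% in either direction. Slc2a3, Pfkp and Aldoa had no called probe. With no filter on dim probes, of the members only Slc2a1 and Pfkm stayed past the threshold. The count of all called probes, 6834 or 25.3%, was 6036 without Foxo3 siRNA replicate 1 and 3305 to 4551 without any one of the other 5 arrays, whereas 10 to 11 member probes were called.

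**Figure D1:**
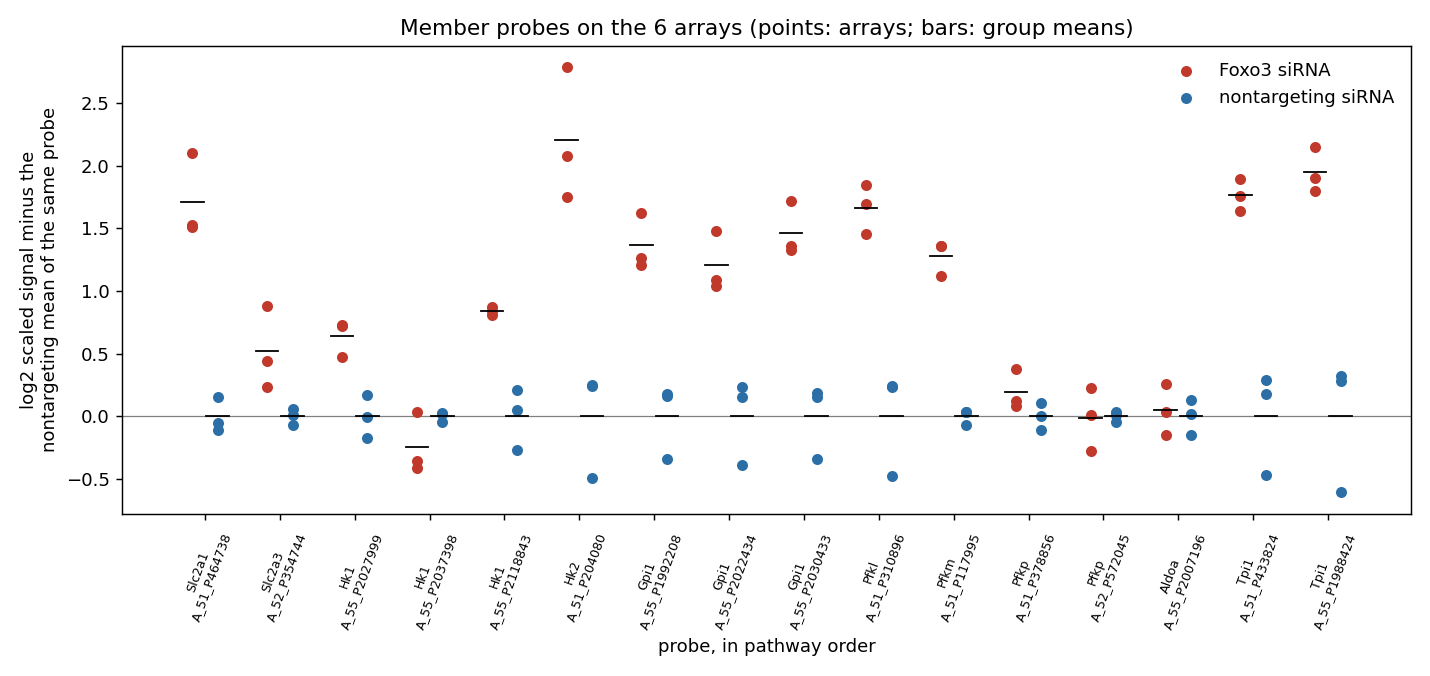
Log2 scaled signal of each member probe on each array, minus the nontargeting mean of that probe, in pathway order along the horizontal axis, with Foxo3 siRNA in red left of nontargeting siRNA in blue. For 12 of the 16 probes the 3 Foxo3 siRNA points lie above the 3 nontargeting points, and the probes without such a gap are 1 of Hk1, both of Pfkp and that of Aldoa.

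The probes of the transporter genes changed by different amounts. Slc2a1 encodes GLUT1. Its scaled signal was 63.5, 42.0 and 42.5 with Foxo3 siRNA, against 13.7, 16.5 and 14.2 with nontargeting siRNA. The groups lay far apart, with Foxo3 siRNA replicate 1 the highest array. The rise was 3.28-fold, or 1.72 on the log2 scale (SE 0.192, 95% interval 1.26 to 2.17, limma adjusted p = 0.00274). Its probe lies at mouse build mm9 chr4:118809864-118809923 on the plus strand. Within slide row 1 the log2 fold change was 2.11 (limma adjusted p = 0.0233).

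Slc2a3, which encodes GLUT3 (mm9 chr6:122678075-122678134, minus strand), gave 352, 225 and 261 with Foxo3 siRNA, against 182, 199 and 193 with nontargeting siRNA. All 3 Foxo3 siRNA values lay above the others, but they spread widely and replicate 2 was close to the nontargeting arrays. The log2 fold change of 0.52 (SE 0.180, 95% interval 0.09 to 0.95) did not pass (limma adjusted p = 0.0764). It passed with scaling to the array median (0.82, adjusted p = 0.0348) and when probes had to be well above background on every array (adjusted p = 0.0349). It also passed with normexp background correction and quantile normalization together (0.43, adjusted p = 0.0478), while quantile normalization alone gave 0.47 (adjusted p = 0.0503). With slide row as a block it was 0.88 (adjusted p = 0.0419), which rests on Foxo3 siRNA replicate 1, the highest array, and the same value within row 1 alone did not pass (adjusted p = 0.0592). It was 0.34 without that array (adjusted p = 0.110), and it did not pass with spike-in scaling (0.89, adjusted p = 0.345) or in the authors' deposited table (0.45, adjusted p = 0.268).

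The promoters of Slc2a1 and Hk2, the transporter and the hexokinase with the larger rises, are shown because genes of this pathway moved together. They run from 250 bases before to 50 bases after the start site, in RefSeq's GRCm38.p6, and capitals mark the hypoxia response core, searched as ACGTG or GCGTG on both strands. Slc2a1 is at chr4:119108495-119108794 on the plus strand and Hk2 at chr6:82774405-82774704 on the minus strand.
Slc2a1: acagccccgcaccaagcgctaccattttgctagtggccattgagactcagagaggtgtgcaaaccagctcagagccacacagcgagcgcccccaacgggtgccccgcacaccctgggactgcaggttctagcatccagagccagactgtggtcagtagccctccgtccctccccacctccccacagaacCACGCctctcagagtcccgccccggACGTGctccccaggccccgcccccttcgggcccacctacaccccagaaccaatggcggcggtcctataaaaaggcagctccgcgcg
Hk2: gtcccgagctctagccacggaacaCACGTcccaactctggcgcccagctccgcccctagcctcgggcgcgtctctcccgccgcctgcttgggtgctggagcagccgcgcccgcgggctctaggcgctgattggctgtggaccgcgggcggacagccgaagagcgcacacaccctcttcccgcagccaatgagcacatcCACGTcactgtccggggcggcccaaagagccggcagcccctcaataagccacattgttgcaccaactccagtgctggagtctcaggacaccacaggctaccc
In Slc2a1 the matches begin at −61 and −36 from the start site, and in Hk2 at −226 and −52.

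RefSeq promoters were matched for 9 of the 10 genes, as 15 windows, some of which overlap, and Slc2a3 was unmatched. The hypoxia core was present in 10 of the 15 windows, against 43.8% of all 32851 promoters of the same length. The stricter ACGTG was present in 7 of them, in Slc2a1, Hk1, Hk2, Pfkm and Aldoa, against 19.6% of all promoters. Overlapping Aldoa windows share the same ACGTG match and overlapping Pfkm windows the same GCGTG match, so these counts of windows hold repeated sites. The E-box CACGTG, which overlaps ACGTG, was found in 1 Pfkm window, against 7.2%. The forkhead motif GTAAACA was found in 0 of 15, against 3.6%. Of the 7 genes with a called probe, 5 hold the core in a window (Slc2a1, Hk1, Hk2, Pfkl and Pfkm) and Gpi1 and Tpi1 have no match. Aldoa and Pfkp, which had no called probe, also hold it. A match in these windows is a description and tests no factor.

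The first enzymatic step is catalysed by hexokinases that bind the outer mitochondrial membrane. Hk2 encodes the inducible isoform. Its probe (mm9 chr6:82675056-82675115, minus strand) gave a scaled signal of 14.4, 8.77 and 7.01 with Foxo3 siRNA, against 2.47, 2.47 and 1.48 with nontargeting siRNA. Every Foxo3 siRNA array was far above every nontargeting array, with replicate 1 again the highest. The rise was 4.61-fold, the largest among the member probes, or 2.20 on the log2 scale (SE 0.321, 95% interval 1.43 to 2.97, limma adjusted p = 0.00595). Within slide row 1 it was 2.79 (limma adjusted p = 0.0342).

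Hk1, the constitutive isoform and the main hexokinase of red cells, was read by 3 probes that did not move alike. The first 30 bases of each are shown because the reading of this gene depends on the probe; all lie on the minus strand of mm9, at chr10:61732747-61732776, chr10:61731886-61731915 and chr10:61731259-61731288 in the order given.
A_55_P2118843: aaggaactgtcaccaaagtgtaccgtgtcc
A_55_P2027999: ggaatctcccatcgctttagtgagccattg
A_55_P2037398: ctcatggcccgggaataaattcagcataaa
The probe A_55_P2118843 gave 41.7, 40.7 and 42.6 with Foxo3 siRNA, against 24.0, 26.9 and 19.3 with nontargeting siRNA. This was a rise of 0.84 on the log2 scale (SE 0.147, limma adjusted p = 0.0103). The next, A_55_P2027999, gave 359, 356 and 301 with Foxo3 siRNA, against 216, 244 and 192 with nontargeting siRNA, a rise of 0.64 (SE 0.141, limma adjusted p = 0.0213). In both the groups lay apart.

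The last Hk1 probe, A_55_P2037398, whose start lies 626 bases further along the gene, gave 424, 311 and 323 with Foxo3 siRNA, against 421, 401 and 419 with nontargeting siRNA. The groups overlapped and the log2 fold change was −0.24 (SE 0.148, 95% interval −0.60 to 0.11, limma adjusted p = 0.239). Its sign turned with scaling to the array median, scaling to spike-in controls and slide row as a block. Set against A_55_P2027999 within each array, its log2 difference was 0.24, −0.20 and 0.11 under Foxo3 siRNA, against 0.96, 0.72 and 1.13 under nontargeting siRNA. The groups lay apart by −0.89 (SE 0.175, exact two-sided permutation p = 0.10, the smallest that 3 against 3 arrays can give; a pair chosen after its values were seen). The calls of both rising Hk1 probes were lost within slide row 1 (0.85 and 0.73, limma adjusted p = 0.123 and 0.119), with slide row as a block (the same values, limma adjusted p = 0.0876 and 0.0997) and in the authors' deposited table (0.80 and 0.63, adjusted p = 0.0899 and 0.157). They were also lost with spike-in scaling, where the values were larger (1.22 and 1.02, limma adjusted p = 0.116 and 0.243). That of A_55_P2027999 was also lost without any one array other than Foxo3 siRNA replicate 3 and nontargeting replicate 2.

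Gpi1 encodes glucose-6-phosphate isomerase. Its 3 probes read the same stretch of the transcript, sharing 55 to 59 of their 60 positions, so they are not separate readings. The 30 bases at mm9 chr7:34987203-34987232, minus strand, are shown to make this visible; capitals mark the letters that differ from the first probe.
A_55_P2022434: tgttgttctgacctgtatttcacaccccag
A_55_P2030433: tgttgttctgacctTtatttcacaccccag
A_55_P1992208: tgttgttTtgacctgtatttcacaccccag
Over the 55 shared positions, counted from 1 at the first base shown, A_55_P2030433 differs from A_55_P2022434 at G15T and A_55_P1992208 differs from it at C8T.

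A_55_P2022434, the brightest of them, gave 753, 556 and 575 with Foxo3 siRNA, against 317, 301 and 206 with nontargeting siRNA. The groups lay apart, with nontargeting replicate 3 the lowest array. The rise was 1.21 on the log2 scale (SE 0.211, limma adjusted p = 0.0103), and the others gave 1.36 (SE 0.193, limma adjusted p = 0.00542) and 1.47 (SE 0.192, limma adjusted p = 0.0043). Within slide row 1 the log2 fold changes were 1.48, 1.62 and 1.72, and the call of A_55_P2022434 was lost (limma adjusted p = 0.0661).

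**Figure D2:**
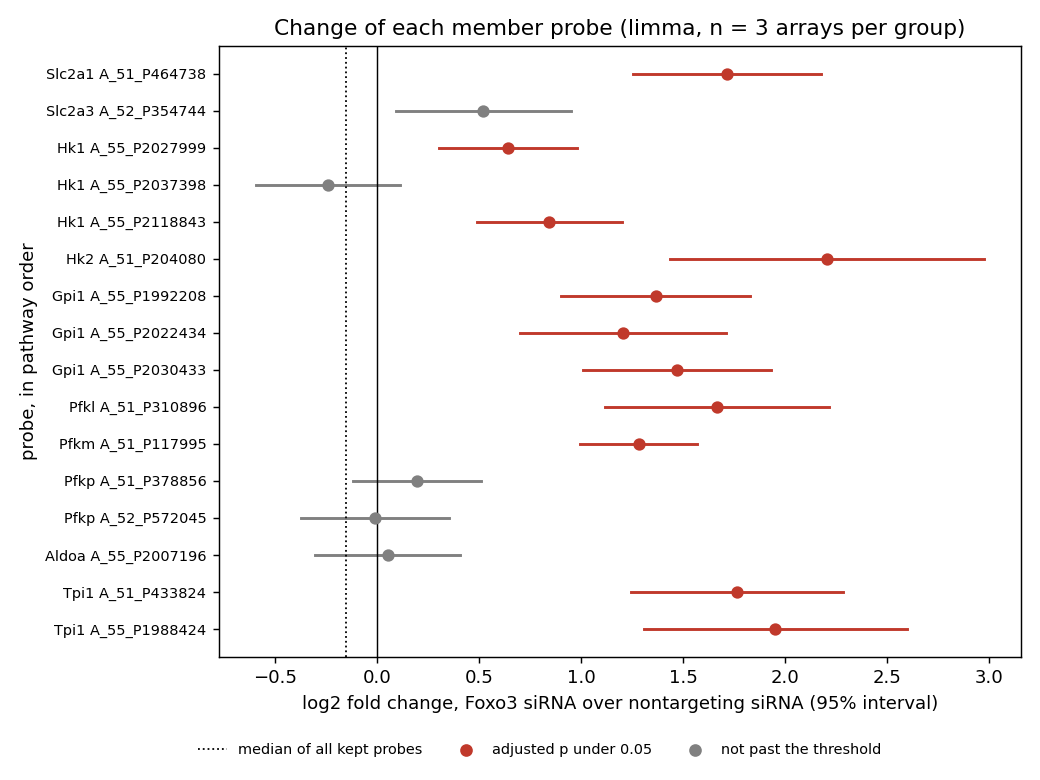
Log2 fold change of each member probe with its 95% interval from limma, in pathway order from top to bottom; red marks an adjusted p under 0.05 and the dotted line the median of all kept probes, −0.15. Slc2a1, Hk2, Gpi1, Pfkl, Pfkm and Tpi1 stand above 1, and both Pfkp probes and Aldoa have intervals that include 0.

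Phosphofructokinase is a tetramer of liver, muscle and platelet type subunits, encoded by Pfkl, Pfkm and Pfkp. Pfkl (mm9 chr10:77450926-77450985, minus strand) gave 29.3, 22.4 and 26.4 with Foxo3 siRNA, against 9.59, 9.68 and 5.85 with nontargeting siRNA. The groups were far apart, a rise of 3.17-fold, or 1.67 on the log2 scale (SE 0.229, limma adjusted p = 0.00494). Within slide row 1 it was 1.85 and did not pass (limma adjusted p = 0.0586).

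Pfkm (mm9 chr15:97962713-97962772, plus strand) was printed on 10 spots, which makes it the most repeated reading among the members. Its mean was 30.5, 25.8 and 30.5 with Foxo3 siRNA, against 12.2, 12.2 and 11.3 with nontargeting siRNA. The arrays of each group were close together and the groups did not overlap. The rise was 2.43-fold, or 1.28 on the log2 scale (SE 0.119, limma adjusted p = 0.00172), and 1.36 within slide row 1 (limma adjusted p = 0.0329). In the authors' deposited table all 10 of these spots have an adjusted p under 0.05 (0.0214 to 0.0296), with a mean log2 fold change of 1.27.

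Pfkp was read by 2 probes that do not overlap. The brighter, whose 60 bases span 2155 bases of the genome and so cross an intron (mm9 chr13:6581718-6583872, minus strand), gave 52.1, 42.4 and 43.6 with Foxo3 siRNA, against 40.3, 43.1 and 37.1 with nontargeting siRNA. The groups overlapped and the log2 fold change was 0.19 (SE 0.131, 95% interval −0.12 to 0.51, limma adjusted p = 0.284). It was 0.498 with median scaling, 0.567 with spike-in scaling and 0.378 with slide row as a block, and passed in none of them (limma adjusted p = 0.207, 0.641 and 0.211). The dimmer probe gave 0.701, 0.494 and 0.601 with Foxo3 siRNA, against 0.612, 0.580 and 0.601 with nontargeting siRNA, with a log2 fold change of −0.01 (95% interval −0.37 to 0.35, limma adjusted p = 0.955) whose sign turned with median scaling (0.29), quantile normalization, spike-in scaling and slide row as a block. Both intervals lie below those of Pfkl and Pfkm.

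Differences between paralogs were also taken within each array, where the scaling cancels, with the brightest probe standing for a gene. Slc2a1 minus Slc2a3 changed by 1.20 on the log2 scale (SE 0.0779), with −2.47, −2.42 and −2.62 under Foxo3 siRNA and −3.73, −3.60 and −3.77 under nontargeting siRNA. Hk2 minus Hk1 changed by 2.45 (SE 0.317), or by 1.79 with all Hk1 probes averaged. Among the phosphofructokinases, Pfkm minus Pfkp changed by 1.09 (SE 0.0848), Pfkp minus Pfkl by −1.47 (SE 0.194) and Pfkm minus Pfkl by −0.38 (SE 0.210). In all 5 pairs the groups lay apart, as did 49.2% of single kept probes in either direction. No such share was taken for pairs of probes, and the phosphofructokinase pairs reuse the same probes, so the 5 are not separate readings. Each exact two-sided permutation p was 0.10 (0.10 after adjustment over the 5 pairs). This is the smallest this permutation test can give with 3 against 3 arrays, so that it cannot pass 0.05 here. The Pfkm minus Pfkl difference, 0.06 to 0.21 under Foxo3 siRNA and 0.33 to 0.95 under nontargeting siRNA, had the smallest change. It was −0.18 without nontargeting replicate 3, and its exact permutation p was 0.30 without any one Foxo3 siRNA array.

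**Figure D3:**
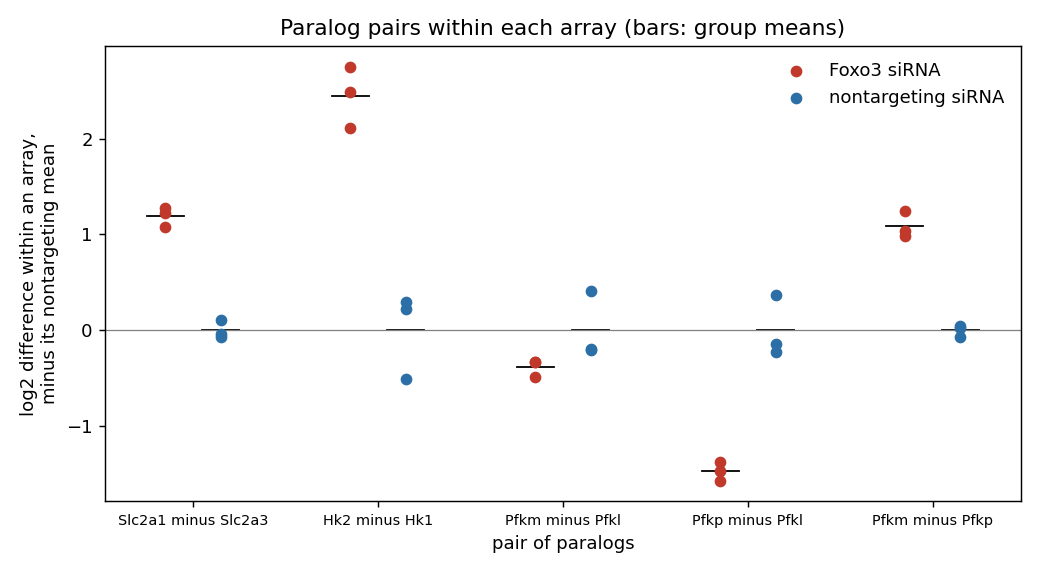
Log2 difference between 2 paralogs within each array, minus its nontargeting mean, for 5 pairs, with Foxo3 siRNA in red left of nontargeting siRNA in blue and bars at group means. Hk2 over Hk1 has the largest shift (2.45), and Pfkm over Pfkl the smallest (−0.38).

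Aldoa encodes aldolase A, which splits fructose 1,6-bisphosphate. Its single probe (mm9 chr7:133938816-133938875, minus strand) gave 1782, 1346 and 1530 with Foxo3 siRNA, against 1629, 1511 and 1343 with nontargeting siRNA. The groups overlapped and the log2 fold change was 0.05 (SE 0.148, 95% interval −0.30 to 0.40, limma adjusted p = 0.806). The value depended on the processing. It was 0.45 with quantile normalization (limma adjusted p = 0.0257), 0.44 with normexp and quantile normalization (limma adjusted p = 0.0167), and 0.46 in the authors' deposited table (adjusted p = 0.182). The Aldoa probe was brighter than 99.98% of kept probes, although no spot on these arrays was marked as saturated.

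Tpi1, triosephosphate isomerase, was read by 2 probes whose starts lie 976 bases apart that both rose. A_51_P433824 (mm9 chr6:124760947-124761006, minus strand) gave 417, 350 and 378 with Foxo3 siRNA, against 137, 127 and 80.9 with nontargeting siRNA. A_55_P1988424 gave 171, 134 and 144 with Foxo3 siRNA, against 47.0, 48.2 and 25.3 with nontargeting siRNA. The groups lay far apart on both, with nontargeting replicate 3 the lowest array. The rises were 1.76 (SE 0.217, limma adjusted p = 0.00358) and 1.95 (SE 0.269, limma adjusted p = 0.00499) on the log2 scale, or 3.40-fold and 3.87-fold. Within slide row 1 they were 1.89 and 2.15 and did not pass (limma adjusted p = 0.0554 and 0.0633).

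The arrays of a group kept much the same order over the member probes, among which the overlapping Gpi1 probes count separately. Foxo3 siRNA replicate 1 was the highest of its group for 14 of the 16 probes and replicate 2 the lowest for 14. Nontargeting replicate 3 was the lowest of its group for 12 probes. The order over all kept probes is not given beside these counts, so nothing particular to the pathway is read from them.

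Where a member was read by several probes, the probe with the brightest signal had the smallest rise, or none, in Hk1, Gpi1 and Tpi1, but not in Pfkp. Over the 17 other listed genes with several kept probes, a count made after the values were seen, the brightest probe had the lowest log2 fold change in 8 and the highest in 7. Of the 4 with a called rise, Gapdh, Ldha and Slc16a3 had the lowest value at the brightest probe, and Tfrc the highest. The 2 brightest of 8 Gapdh probes gave log2 fold changes of 0.07 (limma adjusted p = 0.704) and 0.14 (limma adjusted p = 0.46), whereas the other 6 rose by 0.68 to 1.47, and the dimmest rose most. The brightest of 3 Ldha probes, for lactate dehydrogenase A, rose by 1.25 and the others by 1.94 and 2.19. The signal of the Aldoa probe, the only probe of that name, was brighter than any of these; the part of brightness in these values was not tested.

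**Figure D4:**
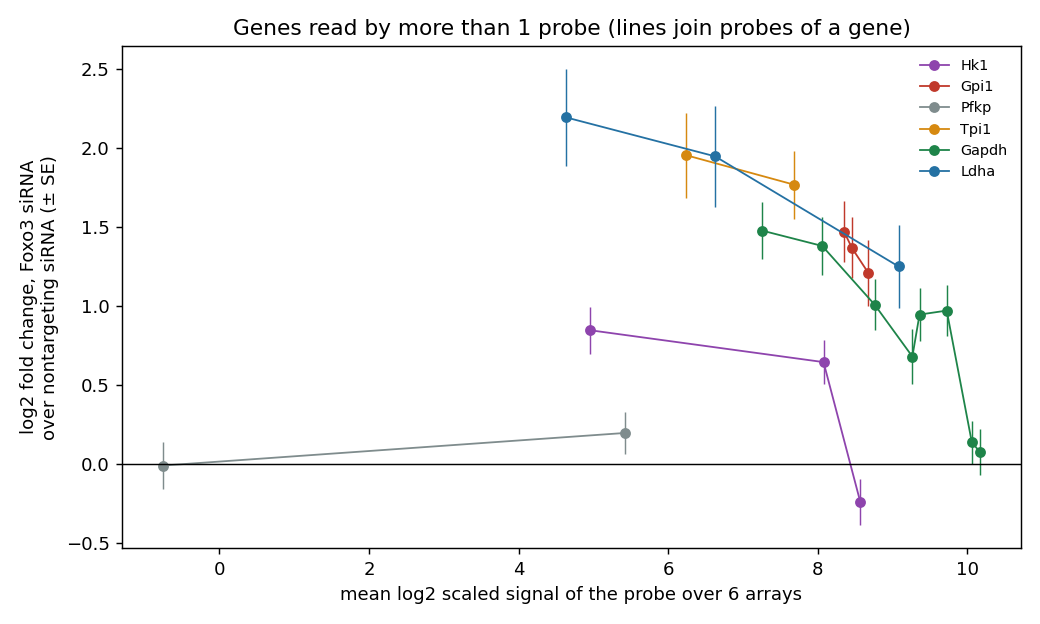
Log2 fold change (± SE) of each kept probe against its mean log2 scaled signal over the 6 arrays, for the members with several probes and for Gapdh and Ldha; lines join probes of 1 gene. Within Hk1, Gpi1, Tpi1 and Ldha the change declines as the signal rises, and the 2 brightest Gapdh probes lie near 0.

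Other genes of glucose metabolism, with the brightest kept probe standing for a gene, give the setting of these values; of all such features 13.1% were called higher and 12.8% lower by limma, with a median of −0.15. Of 23 other transporter and upper glycolysis genes, 10 could be tested, and 3 rose and 0 fell (median 0.03). These were Slc5a2, a sodium-glucose cotransporter (0.96, limma adjusted p = 0.0189), Slc2a8 (0.49, limma adjusted p = 0.0333) and Pfkfb4, which makes an activator of phosphofructokinase (0.55, limma adjusted p = 0.0475). Slc2a9 gave −0.36 (limma adjusted p = 0.0763).

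Further down the pathway, 7 of 12 tested genes of lower glycolysis and lactate rose and 1 fell (median 1.04). Slc16a3, a lactate exporter, rose by 1.67 (limma adjusted p = 0.00301), Pgam1 by 1.70 (limma adjusted p = 0.00325), Pgk1, phosphoglycerate kinase, by 1.68 (limma adjusted p = 0.00695) and Pgam2 by 1.498 (limma adjusted p = 0.0101, 2 of 3 Foxo3 siRNA arrays well above background). The gene that fell was Bpgm, which diverts the pathway to 2,3-bisphosphoglycerate (−0.53). In the pentose phosphate pathway, which branches off after hexokinase, 3 of 7 rose and 0 fell (median 0.49): Pgd by 0.53, Pgls by 0.59 and Rpe by 0.49. G6pdx, its first enzyme, gave 0.65 (limma adjusted p = 0.0541).

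Among 16 tested regulators of glucose uptake and glycolysis, 4 rose and 2 fell (median 0.03). Txnip, which promotes removal of GLUT1 from the cell surface, fell by 1.74 (limma adjusted p = 0.00174). Bsg, the partner of lactate transporters, rose by 1.54 (limma adjusted p = 0.00176), Pdk1, a kinase that inhibits pyruvate dehydrogenase, by 1.77 (limma adjusted p = 0.00409), and Egln1, an oxygen-sensing prolyl hydroxylase, by 1.20 (limma adjusted p = 0.00994). The fourth rise was Vhl (0.46) and the other fall Egln2 (−0.54). Transcripts of the factors themselves did not pass: Hif1a gave 0.20 (limma adjusted p = 0.494), Epas1 −0.43 (limma adjusted p = 0.144) and Myc 0.15 (limma adjusted p = 0.706). The activity of these factors was not measured. In bulk RNA a change per cell and a change in the share of cells with the transcript cannot be told apart.

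Markers of other lineages were looked at beside these values. Of 5 tested megakaryocyte markers 3 rose, Treml1 by 2.51, Itga2b by 1.27 and Gp1ba by 0.59, where 13.1% of all features were called higher. The other 2, Gp9 (−0.54, limma adjusted p = 0.254) and Pf4 (−0.15, limma adjusted p = 0.768), did not pass. The summed scaled signal of the tested ones was 39.1 to 70.1 with Foxo3 siRNA and 37.9 to 57.7 with nontargeting siRNA. The part of these markers in the results was not tested. With the brightest kept probe standing for a gene, of 3 tested myeloid, 3 lymphoid and 1 fibroblast markers 0 were called. For Cd79a, a lymphoid marker, that probe gave −0.08 (limma adjusted p = 0.808), whereas its dimmer kept probe was called lower. Of 2 endothelial markers Kdr fell (−0.67).

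**Figure D5:**
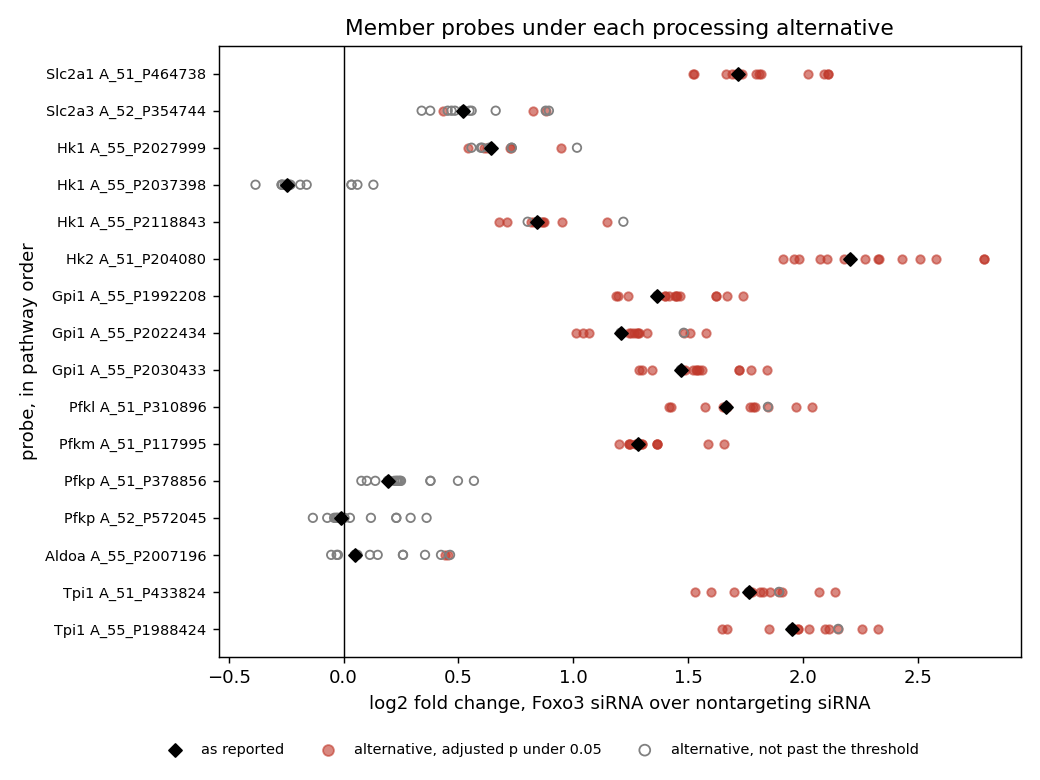
Log2 fold change of each member probe as reported (black diamonds) and under each processing alternative (circles, filled red where the adjusted p is under 0.05), in pathway order from top to bottom. The values of Slc2a1 (1.52 to 2.11) and Pfkm (1.20 to 1.65) are red throughout, and none of Pfkp passed the threshold, although the brighter probe reached 0.57 with spike-in scaling.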

How the data were processed

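Total RNA of 6 samples was labelled with Cy3 and hybridised singly to 1-colour Agilent mouse arrays. Per the file headers, the deposited intensity of each spot was computed by the authors with Agilent Feature Extraction 10.7.3.1 on a design placed on mm9, with spatial and multiplicative detrending but no scaling between arrays. Per the submitters' processing notes, limma gave each deposited log2 fold change with its raw and adjusted p-value; the normalization before it is not given in the sources used here.

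Control spots were left out and outlier spots set to missing. The log2 intensity had the array's 75th percentile subtracted, and spots of 1 probe were averaged. Probes well above background (on a share of at least 0.5 of their spots) on all 3 arrays of 1 group were kept. Groups were compared with limma 3.58.1 in R 4.3.3 (lmFit, eBayes, two-sided, no covariates), with Benjamini-Hochberg adjustment over all 27038 kept probes; the fit was tested on simulated data. Member probes were taken by gene name. Other list genes were matched to RefSeq (27235 probes by accession, 3581 by symbol, 565 by synonym, 24300 unmatched). The rule named all members and up to 4 genes per list with the smallest adjusted p; other names were chosen after their values were seen. Members and lists were chosen with earlier results of these data known. Array number limits precision (3 per group).

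Alternatives covered scaling, background, filter, blocks, weights, outliers, probe choice, the authors' table and each array left out.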

Additional observations from a re-analysis of the deposited data

How the results depend on the processing

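All called member probes were higher with Foxo3 siRNA under every alternative run, but their number varied. Against 11 of 16 member probes and 6834 of all kept probes, no filter on dim probes left 2 and 634, the arrays of slide row 1 alone 5 and 1205, and 1 probe per gene name 6 of 10 members. Scaling to spike-in controls called 1260 probes in all, slide row as a block 1854, array weights 10743, and 1182 were called in the authors' deposited table. Leaving out 1 array gave 10 to 11 member probes and 3305 to 6036 in all. Genes of the other lists, 17 higher and 3 lower, numbered 9 and 0 with spike-in scaling, 2 and 1 without the filter, 8 and 1 with slide row as a block, 3 and 1 within row 1, and 6 and 1 in the authors' deposited table. The lower count was 1 with median scaling, 6 with the filter on all 6 arrays and 8 with array weights. Without 1 array the lists had 9 to 14 higher and 1 to 4 lower.

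The median of all kept probes was −0.15, against 0.15 with median scaling and 0.22 with spike-in scaling, and higher calls made up 48.6% of all calls, against 77.3% and 81.9%. They made up 66.7% without the filter, 66.0% in the authors' deposited table and 59.98% with slide row as a block. The spike-in controls used differed between groups by −0.40 to −0.31, so the sign of small changes depends on scaling. Among member probes and these alternatives, signs turned only for Hk1 A_55_P2037398 (0.0604 with median scaling, 0.13 with spike-in scaling, 0.0345 with slide row as a block and within row 1), the dimmer Pfkp probe (0.0277 with quantile normalization, 0.29 with median scaling, 0.36 with spike-in scaling, 0.23 with slide row as a block and within row 1, 0.119 without Foxo3 siRNA replicate 2 and 0.00435 without nontargeting replicate 1, in a range of −0.133 to 0.119 without 1 array) and Aldoa (−0.030 with array weights, −0.0538 without Foxo3 siRNA replicate 1 and −0.0245 without nontargeting replicate 3, in a range of −0.0538 to 0.149 without 1 array). The cause was not tested.

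Replicate numbers did not pair the arrays (correlation of deviations 0.16, −0.31 and 0.11 for numbers 1 to 3), and the replicate block called 11 member probes and 6697 in all. Of the 16 alternatives run for paralog differences, 5 (median and spike-in scaling, both other filters and 1 probe per gene name) leave them identical by construction. Direction was kept under the other 11. Among these, keeping outlier spots changed only the pairs with Pfkm, and averaging probes only those with Hk1 or Pfkp.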
